A study of Mus musculus with 8 samples.

Results

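The immediate early genes followed here are 10 of the 24421 genes in the count tables: Fos, Fosb, Jun, Junb, Jund, Egr1, Ier2, Atf3, Dusp1 and Nr4a1. They are a named list of genes whose columns stand in the tables of all 8 samples, with no threshold on their values, and the list was drawn up with earlier results of these data known. Single islet cells were profiled from C57BL/6J male mice aged 8 weeks, in 4 control samples from mice that had no operation and 4 samples taken 2 days after 50% partial pancreatectomy (PPTx), in which the splenic side of the pancreas is removed. Each sample held islets of several mice or of a single mouse, and the control group had no sham surgery, so the operation and the loss of pancreatic tissue cannot be told apart. PPTx islets came from the part of the pancreas left after surgery and control islets from unoperated pancreas. The region of the pancreas therefore also differs with group and cannot be told apart from surgery. Islets were freed with collagenase and dispersed with trypsin before cells were isolated. The values are counts of unique molecular identifiers (UMIs, each marking a captured RNA molecule).

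Immediate early genes are transcribed within minutes when a cell receives a growth factor, a calcium signal or a stress, because the factors that switch them on are already present in the cell. Fos and Jun proteins pair to form the transcription factor AP-1, while Egr1 and Nr4a1 encode other transcription factors and Dusp1 encodes a phosphatase that switches off MAP kinases. In islets they are known to respond to glucose and membrane depolarisation, and in any tissue they can also be switched on by enzymatic dissociation. Transcription that began in the animal and transcription that began during dispersal cannot be told apart in these data.

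Of 1240 cells, 1232 passed the filter given in the study's methods (520 control, 712 PPTx), with sample totals of 236645 to 1580152 UMIs and sample medians of 3328 to 8677 UMIs per cell. Cells were sorted by the hormone whose UMIs were at least 2 times those of the next hormone. This gave 952 Ins-led cells (54 to 236 per sample), 114 Gcg-led, 130 Ppy-led, 13 Sst-led and 1 Ghrl-led cells, and 22 mixed cells that were left out of comparisons between types. The Gcg-led, Ppy-led, Sst-led and Ghrl-led cells together are called other-hormone cells (258). The Ins-led cells also carried the beta cell transcripts Iapp (48809 UMIs per 1000000 UMIs of the class, CPM), Ucn3 (531 CPM) and Slc2a2 (219 CPM), whereas Mafa was close to absent at 2 UMIs. The Gcg-led cells carried Ttr (38114 CPM), and the Ppy-led cells carried Pyy (113177 CPM). Among markers of other cell types in the other-hormone cells, 2 of 8 endothelial and 4 of 10 immune markers had a UMI, with Pecam1, Cdh5, Kdr, Ptprc, Cd74 and Lyz2 at 0, and 8 of 10 acinar and 6 of 7 ductal markers had one. The summed acinar markers stood at 0 to 15.3 CPM in the other-hormone cells of control and at 36.0 to 135 CPM in those of PPTx samples, and the ductal markers at 126 to 311 CPM and 212 to 518 CPM. Gcg-led cells came mostly from control samples (95 of 114) and Ppy-led cells mostly from PPTx samples (98 of 130), so for the pooled class hormone and surgery are partly confounded. Only 1 barcode occurred in more than 1 sample.

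The promoters are shown because several members were higher in the same cell types in the values that follow, while Jund, Nr4a1 and Atf3 were less regular. As background, the cAMP response element is a DNA motif bound by CREB and ATF proteins. RefSeq windows of 250 bases before the annotated start (build GRCm38.p6) were at hand for 8 of the 10 members, all but Egr1 and Ier2. The core of the element, TGACG on either strand, lay in 6 of the 8 (Atf3, Dusp1, Fos, Fosb, Junb and Nr4a1), against 17.9% of all 27025 promoters of that length. The complete element TGACGTCA, which contains the core, lay in Dusp1 alone, at bases -143 to -136 before the start, against 1.62% of all promoters. The AP-1 site TGANTCA (6.87% of promoters) and the CArG box bound by serum response factor (1.4%) were in none of the 8 windows. Bases further from the start, and Egr1 and Ier2, were not searched, so these genes may hold such sites elsewhere. A match describes letters only. The windows of Fos, Junb and Dusp1 are given with the matches in capitals, beside those of Jun and Jund, which held no match and so have no capitals.
Fos, chr12:85473640-85473889, plus strand: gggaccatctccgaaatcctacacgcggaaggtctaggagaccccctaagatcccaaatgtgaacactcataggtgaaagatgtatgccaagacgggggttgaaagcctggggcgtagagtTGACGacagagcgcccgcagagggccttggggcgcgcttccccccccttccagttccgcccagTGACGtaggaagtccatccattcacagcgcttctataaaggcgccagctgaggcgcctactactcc
Junb, chr8:84978749-84978998, minus strand: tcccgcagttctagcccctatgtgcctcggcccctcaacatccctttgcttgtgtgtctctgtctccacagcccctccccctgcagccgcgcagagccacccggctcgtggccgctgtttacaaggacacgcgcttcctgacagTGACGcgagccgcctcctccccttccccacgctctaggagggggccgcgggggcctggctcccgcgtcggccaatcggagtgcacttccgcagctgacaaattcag
Dusp1, chr17:26508473-26508722, minus strand: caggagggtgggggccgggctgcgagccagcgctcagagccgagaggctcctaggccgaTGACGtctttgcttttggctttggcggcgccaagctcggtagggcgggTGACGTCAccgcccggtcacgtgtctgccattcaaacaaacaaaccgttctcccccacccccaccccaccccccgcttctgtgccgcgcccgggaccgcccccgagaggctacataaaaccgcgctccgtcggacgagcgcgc
Jun, chr4:95052223-95052472, minus strand: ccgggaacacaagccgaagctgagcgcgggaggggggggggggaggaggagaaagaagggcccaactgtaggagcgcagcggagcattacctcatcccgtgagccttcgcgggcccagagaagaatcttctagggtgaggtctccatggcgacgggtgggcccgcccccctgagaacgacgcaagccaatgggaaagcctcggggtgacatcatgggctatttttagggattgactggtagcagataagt
Jund, chr8:70697489-70697738, plus strand: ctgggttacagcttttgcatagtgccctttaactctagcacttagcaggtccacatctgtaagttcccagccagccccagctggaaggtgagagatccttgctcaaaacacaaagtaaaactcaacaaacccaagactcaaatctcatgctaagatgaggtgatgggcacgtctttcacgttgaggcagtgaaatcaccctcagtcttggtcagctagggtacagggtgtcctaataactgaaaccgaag

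Levels by cell type were compared first, within samples, so that both classes shared mice, dispersal and library. Fos, Jun, Junb, Egr1 and Ier2 were higher per UMI in other-hormone cells than in Ins-led cells of the same sample in 8 of 8 samples, and Jund, Atf3 and Nr4a1 were less regular. Fos, a subunit of AP-1, stood at 122, 78.4, 29.1 and 50.5 CPM in the Ins-led cells of control samples 1 to 4 and at 166, 124, 29.1 and 32.8 CPM in those of PPTx samples 1 to 4. In other-hormone cells of the same samples Fos stood at 596, 619, 308 and 255 CPM and at 1185, 811, 432 and 154 CPM. The ratio within a sample was 4.69 to 14.9 with a median of 6.86, and every sample had the higher value in other-hormone cells.

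Jun, the usual partner of Fos, was at 122, 50.8, 22.8 and 25.3 CPM in control and at 106, 75.3, 45.7 and 18.2 CPM in PPTx Ins-led cells. In other-hormone cells Jun was at 224, 471, 202 and 153 CPM in control and at 550, 506, 276 and 192 CPM in PPTx samples. The lowest other-hormone value of Jun was thus above the highest Ins-led value. Egr1, a zinc finger transcription factor, was at 107, 36.0, 29.9 and 39.0 CPM and at 124, 64.2, 35.3 and 21.9 CPM in Ins-led cells. In other-hormone cells Egr1 was at 559, 314, 219 and 117 CPM and at 729, 491, 264 and 135 CPM. Its ranges met only between the other-hormone cells of control sample 4 and the Ins-led cells of PPTx sample 1, and within each sample the ratio was 3.003 to 8.720.

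**Figure D1:**
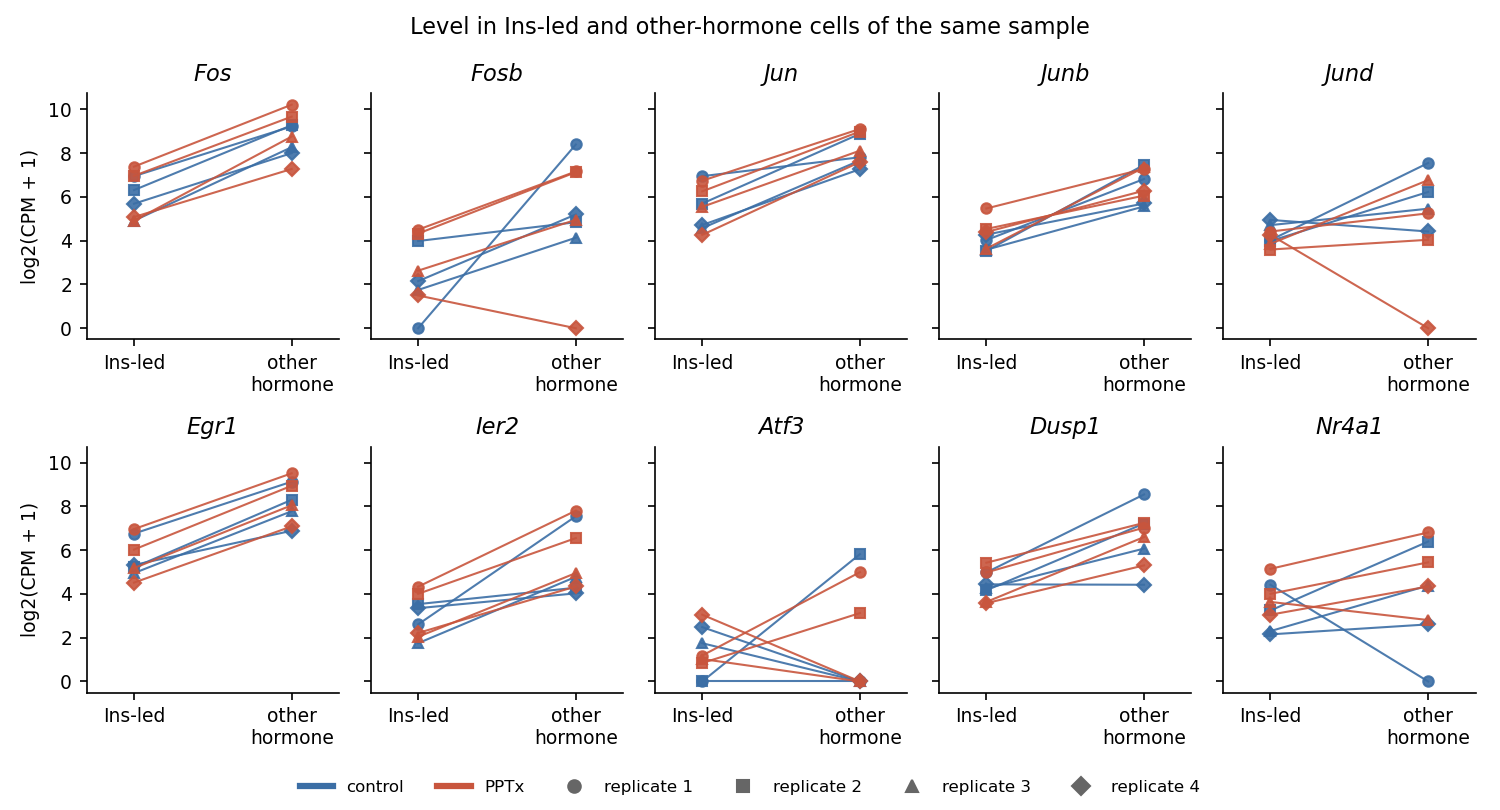
Level of each of the 10 genes as log2(CPM + 1) in Ins-led and other-hormone cells of each sample, with colours for control and PPTx and marker shapes for replicate numbers. Fos, Jun, Junb, Egr1 and Ier2 sit higher in the other-hormone cells in 8 of 8 samples, while Jund, Atf3 and Nr4a1 do so in 6, 3 and 6 samples.

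In the fit across all genes with the sample as a block (edgeR quasi-likelihood test, Benjamini-Hochberg adjustment), 1099 of 2516 genes differed between other-hormone and Ins-led cells, that is 43.7%, and 21.5% were higher in other-hormone cells. Only 5 members passed the low-count filter of that fit, and the 5 were called higher. Fos was higher by 2.75 ± 0.15 on the log2 scale (standard error, SE; adjusted p = 2.7e-19), Egr1 by 2.51 ± 0.15 (adjusted p = 2.13e-17) and Jun by 2.53 ± 0.16 (adjusted p = 5.52e-17). Junb, an AP-1 subunit that often opposes Jun, was higher by 2.19 ± 0.25 (adjusted p = 1.32e-09) in 8 of 8 samples, and Dusp1 by 1.97 ± 0.24 (adjusted p = 5.55e-09) in 7 of 8. Since a member can pass the filter through the class where it is high, the fit was also run on every gene with a UMI: there 9 of the 10 members were called higher, where 4.45% of 14502 genes were. In that fit Fosb was higher by 2.49, Ier2 (a small nuclear immediate early protein) by 2.45, Nr4a1 (an orphan nuclear receptor) by 1.20 and Jund by 0.83, and Atf3 (a stress-responsive ATF/CREB family factor) at 1.59 was not called (adjusted p = 0.144).

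By the exact sign-flip test over the 8 samples (two-sided, smallest possible p 0.00781), Fos, Jun, Junb, Egr1 and Ier2 each gave p = 0.00781. Fosb and Dusp1, each higher in 7 of 8 samples, gave exact p = 0.0156. Jund (exact p = 0.102), Nr4a1 (exact p = 0.117) and Atf3 (exact p = 0.406) did not pass. Among all genes with a UMI, 3.26% were higher in other-hormone cells of all 8 samples, and among the 2103 genes with a mean at least that of Ier2, 14.5% were. The Ins transcripts filled 58.3% of the UMIs of Ins-led cells. A scaling without TMM, the method that sets the comparison against the bulk of genes, moved the median of all genes by 0.20, and a fit with the hormone genes left out gave the 5 members the same call.

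The Gcg-led and the Ppy-led cells were then each set against Ins-led cells. Gcg-led cells could be tested in control samples 2, 3 and 4, where Fos was at 863, 329 and 357 CPM. This put Fos higher than in Ins-led cells by 2.75 ± 0.22 (log2, edgeR adjusted p = 9.84e-15), Jun by 2.09 ± 0.32 and Egr1 by 2.00 ± 0.31, all in 3 of 3 samples, beside 25.3% of 3280 genes called and 11.2% called higher. Junb was higher by 2.15 ± 0.45, a call that was lost without control sample 2 (1.39). Jund, a subunit of AP-1 with steadier transcription than its relatives, differed by -0.02 ± 0.47 (adjusted p = 0.979), although its CPM was higher in 3 of 3 samples (27.8, 37.5 and 31.5 in Gcg-led against 14.8, 25.2 and 29.9 in Ins-led cells), and without TMM its value was 0.50. That scaling moved the median gene by 0.53 here.

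Ppy-led cells could be tested in control sample 4 and the 4 PPTx samples, where Fos was at 159, 1102, 772, 329 and 144 CPM. Fos was higher than in Ins-led cells by 2.65 ± 0.17 (log2, edgeR adjusted p = 1.95e-49), Jun by 2.65 ± 0.19, Egr1 by 2.64 ± 0.18, Junb by 2.07 ± 0.31 and Dusp1 by 1.83 ± 0.31, beside 26.6% of 3263 genes called and 12.6% called higher. Each of these 5 members was higher in 5 of 5 samples. On every gene with a UMI, Fosb (2.51 ± 0.38) and Ier2 (2.55 ± 0.38) were called as well in Ppy-led cells (2.11% of all genes were called higher), whereas in Gcg-led cells Fosb (1.503 ± 0.859, adjusted p = 0.443) and Ier2 (1.04 ± 0.85, adjusted p = 0.728) were not (1.65% of all genes were called higher). Dusp1 was not called in Gcg-led cells either (0.84 ± 0.48, adjusted p = 0.438). Without control sample 4, Dusp1 passed the filter there and was called at 1.53 (adjusted p = 0.0476). Jund and Nr4a1, called in the pooled class, were called in neither Gcg-led cells (adjusted p = 0.915 and 0.228) nor Ppy-led cells (adjusted p = 0.340 and 0.216). Without PPTx sample 4, Jund passed the filter in Ppy-led cells and was called at 1.25 (adjusted p = 0.0214). Set directly against Gcg-led cells without the filter, Ppy-led cells differed by 0.91 ± 0.65 for Fosb and 0.41 ± 0.71 for Ier2 (adjusted p = 0.9992 for both), so a difference between these types was not shown. The spread of Fos among Ppy-led samples (501 ± 421 CPM, SD, n = 5) was wide, with PPTx samples 1 and 2 highest, as in Ins-led cells. The median depth per cell was 6055 UMIs in Ins-led, 3962.5 in Gcg-led and 5206 in Ppy-led cells. When only cells of 3000 to 6000 UMIs were used, Fos, Jun and Egr1 kept their call in the pooled class at 2.34, 1.70 and 2.62, but only 3, 2 and 3 of the 10 members passed the low-count filter in the pooled, Gcg-led and Ppy-led comparisons of that window, where 40.0%, 22.6% and 31.3% of all genes tested were called. The calls of those few members do not bear on the others at matched depth.

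Ppy-led and Gcg-led cells of the same 5 samples (at least 5 cells of each) were compared directly, and 0 of 4 members tested were called by edgeR, beside 11.7% of 532 genes. Fos was lower in Ppy-led cells in 5 of 5 samples (log2 difference -0.40 ± 0.15, adjusted p = 0.0923, unadjusted p = 0.0168). Jun was higher by 0.64 ± 0.26 (adjusted p = 0.132), Egr1 by 0.55 ± 0.22 (adjusted p = 0.125) and Dusp1 by 0.40 ± 0.36 (adjusted p = 0.521). Without PPTx sample 3, Jun was called at 0.98. At an unadjusted p below 0.05, 3 of the 4 passed, as did 26.5% of all genes tested, and DESeq2 called none of them. The sign of Fos turned in thinned cells (0.11), and without TMM Fos was called lower (-0.86).

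**Figure D2:**
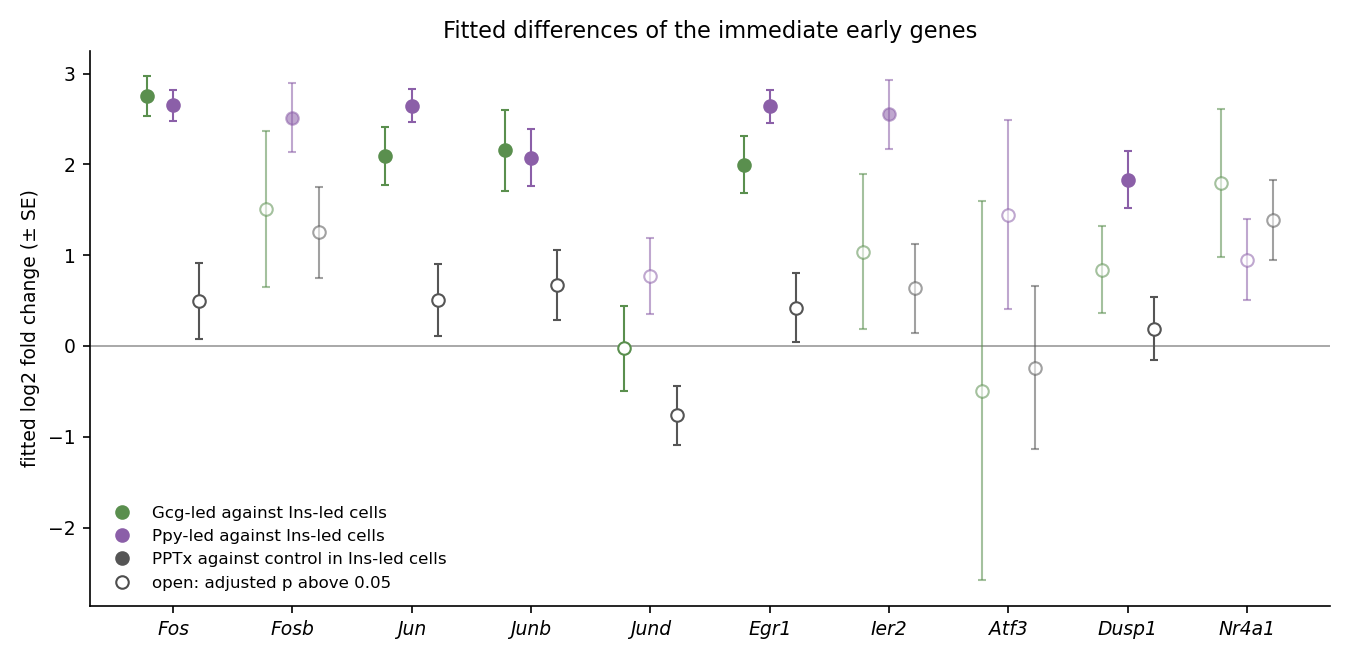
Fitted log2 differences with SE for the members in Gcg-led against Ins-led cells, Ppy-led against Ins-led cells, and PPTx against control in Ins-led cells. Filled points have an adjusted p below 0.05 and faded points come from the fit without a low-count filter. The differences between types lie near 2 to 2.75 for Fos, Jun and Egr1, and the PPTx differences near 0.5 for these 3 genes with none filled.

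Levels can rise because more cells hold a transcript or because a few hold many, so the share of cells with a UMI was counted after every cell was thinned to 2600 UMIs, which left 870 of 952 Ins-led, 96 of 114 Gcg-led and 114 of 130 Ppy-led cells, the rest being shallower. These shares pool cells over samples, and their exact 95% intervals cover counting error only. Fos was found in 14.5% of Ins-led cells (interval 12.2 to 17.0), 42.7% of Gcg-led cells (32.7 to 53.2) and 53.5% of Ppy-led cells (43.9 to 62.9). Before thinning the shares of Fos were 23.8%, 57.0% and 63.1%. Jun was found in 10.1%, 36.5% and 52.6%, and Egr1 in 10.7%, 27.1% and 50.0% of the same classes. Free RNA can give a UMI to a cell that does not express a gene. Ins2 stood at 500618 CPM in Ins-led, 7640 CPM in Gcg-led and 8349 CPM in Ppy-led cells, and no class that should lack these genes was at hand, so their background share was not measured. For these 3 genes the intervals of the Ins-led cells lay apart from those of the other classes. Since they leave out the spread between samples, this is not a test between classes.

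Junb was found in 4.02%, 15.6% and 20.2% of Ins-led, Gcg-led and Ppy-led cells, Fosb in 2.53%, 9.38% and 18.4%, and Ier2 in 1.84%, 6.25% and 14.0%. Dusp1, which limits MAP kinase signals, was found in 5.29%, 10.4% and 18.4%. Jund reached 4.14%, 10.4% and 9.65%, and Nr4a1 2.76%, 4.17% and 6.14%, with intervals of each gene that overlapped across the 3 classes. The intervals of Ins-led and Gcg-led cells also overlapped for Dusp1 (3.90 to 6.99 and 5.11 to 18.3) and Ier2 (1.05 to 2.97 and 2.33 to 13.1). Overlap of these counting intervals does not show that the classes were alike. Atf3 was seen in 0 of 870 thinned Ins-led cells, 0 of 96 Gcg-led cells and 2.63% of Ppy-led cells, and before thinning in 7 of 952 Ins-led (0.735%), 2 of 114 Gcg-led (1.75%) and 5 of 130 Ppy-led cells (3.85%). The 13 Sst-led cells were too few to test. They held 11 UMIs of Fos (267 CPM), 19 of Jun (461 CPM) and 18 of Egr1 (436 CPM).

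**Figure D3:**
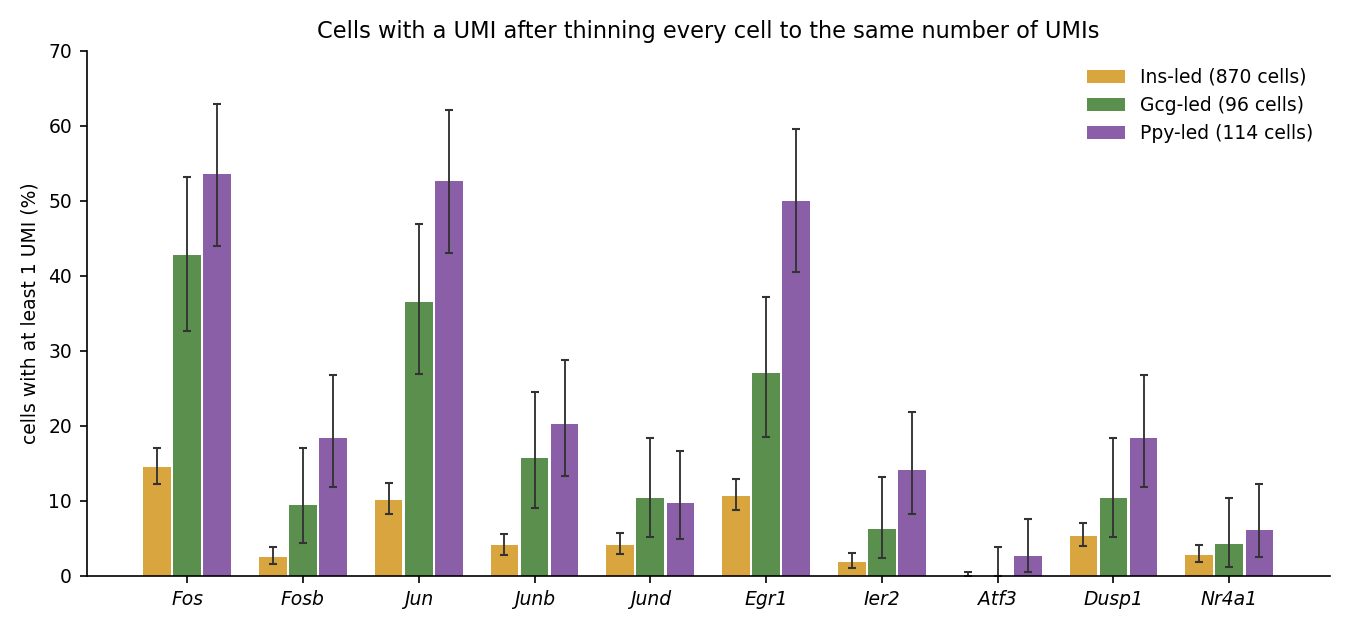
Share of cells with at least 1 UMI of each gene after thinning to 2600 UMIs, in percent, for Ins-led, Gcg-led and Ppy-led cells pooled over samples, with exact 95% intervals. Fos, Jun and Egr1 are each in 10.1% to 14.5% of Ins-led cells and in 27.1% to 53.5% of the cells of the other classes.

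At least 1 member was seen in 36.6% of thinned Ins-led, 70.8% of Gcg-led and 83.3% of Ppy-led cells (56.6%, 85.1% and 87.7% before thinning), and at least 3 members in 4.83% (interval 3.50 to 6.47), 25.0% (16.7 to 34.9) and 42.1% (32.9 to 51.7). The Gcg-led and Ppy-led cells came from different samples: 52 of 114 Gcg-led cells were from control sample 3, and 18 and 44 of 130 Ppy-led cells from PPTx samples 1 and 2, which are among the 4 samples with the highest summed level of the members. These pooled shares therefore give no order of the 2 classes, and within the same samples Fos was lower in Ppy-led cells in 5 of 5 samples and no member was called between them. The median number of members per cell was 0, 1 and 2, and before thinning 1, 2 and 3. Before thinning, the Ins-led cells held 474 UMIs of Fos, with 725 of 952 cells at 0, and up to 19 UMIs in a cell.

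Whether the members sit in the same cells was examined among thinned Ins-led cells, with the 126 cells that held a Fos UMI set against the 744 that did not. Levels and shares are pooled over samples, whose share of Fos-positive cells ran from 5.04% to 25.5%, so they also carry differences between samples, and the tallies and exact tests are within samples. Egr1 was at 140 CPM in Fos-positive and 38.8 CPM in Fos-negative cells and was found in 27.0% and 7.93% of them, higher in 7 of 8 samples (exact sign-flip p = 0.0391). Dusp1 was at 79.4 against 18.6 CPM, also higher in 7 of 8 samples (exact sign-flip p = 0.0234). Among the 3117 genes with at least as many UMIs as Dusp1, 3.4% were higher in at least 7 of 8 samples. Jun was at 201 against 33.6 CPM and in 27.8% against 7.12% of cells, higher in 5 of 8 samples (exact sign-flip p = 0.0625). Junb was at 58.0 against 12.4 CPM but higher in 3 of 8 samples and lower in 5, and Ier2 was higher in 2 and lower in 4. Fosb was higher in 4 and lower in 2 samples, Nr4a1 higher in 3 and lower in 3, and Jund, at 18.3 against 16.5 CPM, higher in 4 and lower in 4. The tallies differed without thinning, where Jun and Egr1 were higher in 8 of 8 samples, Nr4a1 in 7, Junb, Ier2 and Dusp1 in 6 and Jund in 5, and Fosb was higher in 7 and lower in none. Among the 6936 genes with at least as many UMIs as Ier2, 16.4% were higher in at least 6 of 8 samples there.

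No member passed the low-count filter of the edgeR fit in thinned cells, where 0 of 665 genes were called, 24 had an unadjusted p below 0.05 and DESeq2 called 2. On every gene with a UMI, 0.141% of 12734 genes were called, and Jun was the only member among them, higher by 1.61 ± 0.34 (adjusted p = 0.00235). Without thinning, where Fos-positive cells had a median of 6353 UMIs and Fos-negative cells of 5960, 0.23% of 3042 genes were called: Jun (1.74), Egr1 (1.79), Btg2 (0.63), Clu (1.004), Hspa1a (1.15) and Hspa1b (1.10) were higher in Fos-positive cells and Ins2 was lower (-0.18). Of the thinned other-hormone cells 108 were Fos-positive and 113 Fos-negative, with at least 5 of each in 5 samples, and pooled Egr1 was at 513 against 126 CPM, in 57.4% against 23.9% of cells. Fosb (146 against 10.2 CPM), Junb (167 against 40.8 CPM) and Dusp1 (146 against 34.0 CPM) were, like Egr1, higher in 5 of 5 samples, where the smallest possible exact p is 0.0625. Among the 906 genes with at least as many UMIs as Dusp1, 5.08% were higher in all 5. Jun and Jund were higher in 4 of 5 samples, Ier2 was higher in 3 and lower in 2, and Nr4a1 was higher in 2 and lower in 1.

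**Figure D4:**
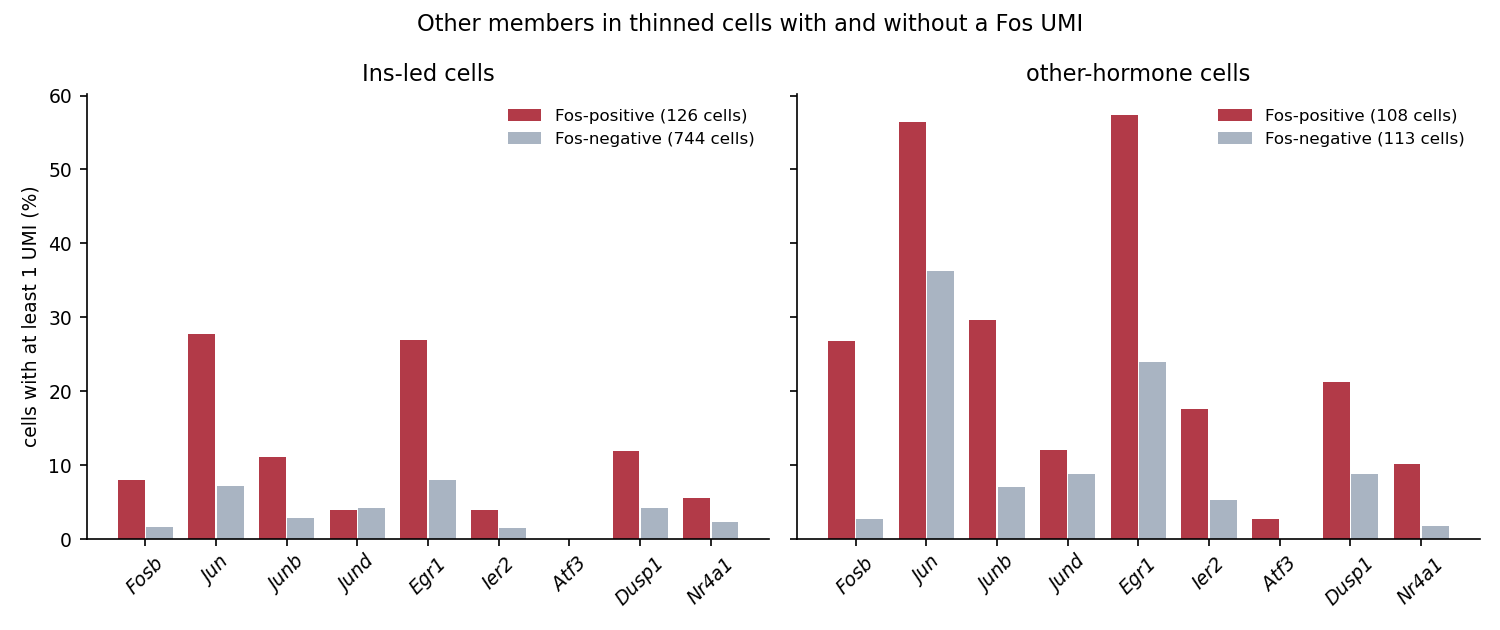
Share of cells with at least 1 UMI of each of the other 9 genes, in percent, among Fos-positive and Fos-negative thinned cells pooled over samples, for Ins-led and other-hormone cells. In Ins-led cells Jun is in 27.8% against 7.12% and Egr1 in 27.0% against 7.93% of cells, and in other-hormone cells Egr1 is in 57.4% against 23.9%.

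The effect of PPTx was asked next. In Ins-led cells the values of control and PPTx samples overlapped for all 10 genes, and no unpaired exact permutation p (4 against 4, two-sided, smallest possible 0.0286) was below 0.1. Fos averaged 70.1 ± 40.2 CPM in control and 87.8 ± 67.9 CPM in PPTx samples (SD, n = 4, exact permutation p = 0.714). Junb came closest, at 15.3, 10.6, 11.0 and 18.4 CPM in control and 43.3, 22.2, 11.4 and 20.1 CPM in PPTx samples (exact permutation p = 0.143). Nr4a1, a target of calcium signals, was at 20.4, 8.47, 3.93 and 3.45 CPM and at 34.4, 15.1, 11.4 and 7.29 CPM (exact permutation p = 0.343). With samples compared by replicate number, 2 of the 10 members, Junb and Nr4a1, were higher in PPTx in 4 of 4 numbers, where exact sign flips cannot go below p = 0.125. Among the 5523 genes with a mean level at least that of Nr4a1, 14.5% were. Replicates 1 and 2 of each group were the 4 samples with the highest summed level of the 10 genes (438 and 241 CPM in control, 566 and 388 CPM in PPTx), and replicates 3 and 4 were lower (147 and 204 CPM, 167 and 142 CPM). The same 4 samples were highest in other-hormone cells, at 1985 to 3291 CPM against 635 to 1403 CPM.

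**Figure D5:**
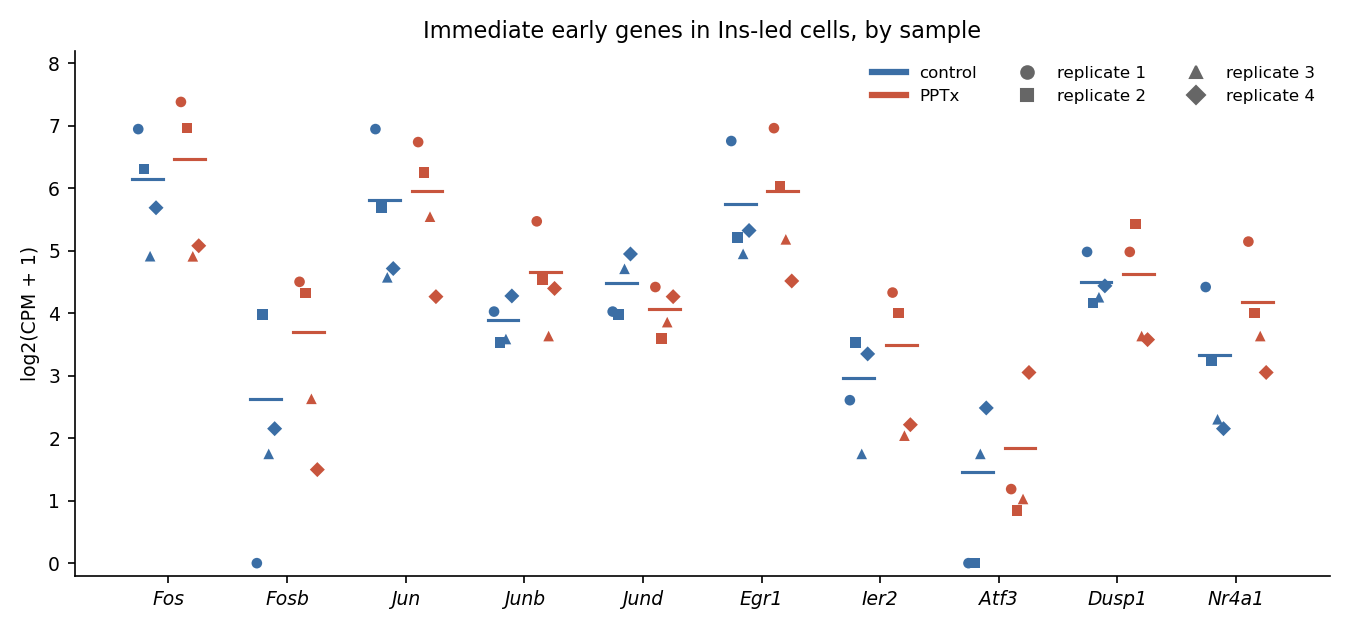
Level of each gene in the Ins-led cells of each sample as log2(CPM + 1), control beside PPTx, with marker shapes for replicate numbers. The groups overlap for each of the 10 genes, and replicates 1 and 2 of both groups lie highest for Fos.

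The edgeR fit called 17 of 5909 genes between PPTx and control Ins-led cells (0.288%), and 0 of the 6 members tested. Fos differed by 0.50 ± 0.41 on the log2 scale (adjusted p = 0.767), Jun by 0.51 ± 0.40 (adjusted p = 0.740), Junb by 0.67 ± 0.38 (adjusted p = 0.611) and Egr1 by 0.42 ± 0.38 (adjusted p = 0.789). With single samples left out Fos ranged from 0.012 to 0.79, Jun from 0.14 to 0.92, Junb from 0.23 to 0.93 and Egr1 from -0.14 to 0.71, each lowest without PPTx sample 1, where Egr1 turned sign. Jund ran the other way at -0.76 ± 0.33 and was the only one of the 6 with an unadjusted p below 0.05 (0.0278, adjusted p = 0.468), which 9.48% of all genes had. DESeq2 called 27 genes and no member. On every gene with a UMI 0.63% were called, and Nr4a1, too sparse for the filter, was at 1.39 ± 0.44 (adjusted p = 0.149) and Fosb at 1.25 ± 0.50 (adjusted p = 0.397). In that fit 6 of the 10 members had an unadjusted p below 0.05 (Fos, Fosb, Jun, Junb and Nr4a1 with higher values in PPTx, Jund with lower), against 7.94% of all genes. Only 5909 of these 14124 genes passed the filter, so this is not a like share for the members. Fos and Jun were both at 0.53 there, close to the fit with the filter, but with a smaller SE of 0.21 and 0.23. By the exact permutation test Fos gave p = 0.714 and Jun p = 0.857. With the replicate number as a block the fit called 33 genes (0.558%) and again no member. Fos was then at 0.09, Jun at 0.20, Junb at 0.47, Egr1 at 0.08, Dusp1 at -0.10 and Jund at -0.65 (adjusted p = 0.524). Of these 6 members 0 had an unadjusted p below 0.05. Fosb, Ier2, Atf3 and Nr4a1 did not pass the filter and were not tested with the block. The summed level of heat shock genes in Ins-led cells was 1105 to 1305 CPM in control and 1274 to 1534 CPM in PPTx samples, and it was higher in PPTx in 4 of 4 replicate numbers. The summed markers of PP cells in Ins-led cells stood at 249.7 to 1671 CPM in control and 2068 to 5321 CPM in PPTx samples, so the groups lay apart. Immune markers stood at 25.5 to 101 CPM and 24.9 to 441 CPM, stellate markers at 0 to 40.2 CPM and 1.04 to 272 CPM, and acinar markers at 5.74 to 45.9 CPM and 9.34 to 177 CPM. The part of these lists in the members' values was not tested.

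In other-hormone cells 0.735% of 1497 genes were called, and 0 of 5 members. Fos was at 0.89 ± 0.36 (log2, adjusted p = 0.3803), Jun at 0.80 ± 0.32 (adjusted p = 0.3796) and Egr1 at 0.97 ± 0.36 (adjusted p = 0.326), each with an unadjusted p below 0.05 (0.0195, 0.0190 and 0.0122), as had 9.55% of all genes tested. Junb was at 0.73 ± 0.41 and Dusp1 at 0.58 ± 0.44. For Dusp1 the sample means ran the other way, at 152 ± 156 CPM in control and 104 ± 49.0 CPM in PPTx samples (SD, n = 4, exact permutation p = 0.771), with control sample 1 at 373 CPM from 10 UMIs. On every gene with a UMI, where 0.0972% were called, Ier2 was at 1.81 ± 0.45 (adjusted p = 0.05175) and Fosb at 1.20 ± 0.43 (adjusted p = 0.7795), and no member was called. The sample means of Fosb also ran the other way, at 104 ± 155 CPM in control, with control sample 1 at 335 CPM, and 77.8 ± 73.5 CPM in PPTx samples (SD, n = 4, exact permutation p = 0.8). Without control sample 2, Jun was called at 1.28, and without PPTx sample 3 Ier2, which then passed the filter, was called at 2.21. The acinar markers given above lay apart between the groups in these cells, and their part in these values was not tested. Because the controls of this class were mostly Gcg-led and the PPTx samples mostly Ppy-led, surgery and hormone cannot be told apart here. Within Ppy-led cells Fos was at 308, 535, 232 and 159 CPM in control samples, from 2 to 13 cells each, and at 1102, 772, 329 and 144 CPM in PPTx samples, so the groups overlapped.

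Over all kept cells, where cell type makeup and level per cell cannot be told apart, 0.474% of 6753 genes were called and 0 of 9 members. Ier2 was at 1.18 ± 0.49 (log2, adjusted p = 0.436) and Nr4a1 at 1.10 ± 0.50 (adjusted p = 0.500), the 2 members of 9 with an unadjusted p below 0.05, where 9.51% of all genes had one, and Jund was at -0.58 ± 0.28. Leaving out single samples gave 0.50 to 1.49 for Ier2, 0.41 to 1.62 for Nr4a1 and -0.84 to -0.28 for Jund. On every gene with a UMI, where 0.812% were called, Ier2 was called at 1.19 (adjusted p = 0.0438). With the replicate number as a block, which did not pair every sample over all cells, edgeR called 59 genes (0.874%) and no member. Ier2 was then at 0.58 (adjusted p = 0.5775) and Nr4a1 at 0.51 (adjusted p = 0.670), and Jund at -0.56 was the only member with an unadjusted p below 0.05 (0.0495, adjusted p = 0.509), which 9.77% of all genes had. The difference of the PPTx effect between other-hormone and Ins-led cells was called for 0.221% of 3622 genes and for 0 of 7 members, none of which had an unadjusted p below 0.05. Egr1 came closest at 0.54 ± 0.29 (adjusted p = 0.624), followed by Fos at 0.39 ± 0.26 (adjusted p = 0.759). Their ranges with single samples left out were 0.25 to 0.73 and 0.18 to 0.64.

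The share of thinned Ins-led cells with a UMI was compared in the same way. Fos was in 15.5 ± 8.28% of cells in control and 14.6 ± 9.58% in PPTx samples (SD, n = 4, exact permutation p = 0.914), and Egr1 in 9.21 ± 4.50% and 12.4 ± 9.24% (exact permutation p = 0.657). Junb was in 2.498 ± 0.225% and 5.07 ± 4.49% of cells (exact permutation p = 0.343). Leaving out PPTx sample 1 took the Junb difference from 2.57 to 0.52 percentage points. The smallest exact permutation p of any member was 0.286.

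Depth per cell was checked within samples, by setting Ins-led cells above their sample's median UMI count (median 8123.5 UMIs) against those below it (4105.5 UMIs). Fos was at 61.8 CPM in the deeper and 97.6 CPM in the shallower cells, lower in the deeper cells in 7 of 8 samples (log2 -0.65 ± 0.16, edgeR adjusted p = 0.0208). Jun was at 41.7 against 70.8 CPM, lower in 8 of 8 samples (-0.77 ± 0.20, adjusted p = 0.0289). Egr1, at 50.4 against 56.1 CPM, did not pass (-0.15 ± 0.20, adjusted p = 0.852). These were 2 calls among the 1.11% of 2893 genes called (0.657% called lower), and both lost their call in thinned cells, at -0.46 (Fos) and -0.86 (Jun), and when single samples were left out, while DESeq2 gave neither gene an adjusted p. Jun also lost its call without the hormone margin, at -0.73. The single samples for Fos were control sample 4 or PPTx samples 1, 2 or 3, with values of -0.74 to -0.53 when single samples were left out, and those for Jun were control samples 1, 2 or 4 or PPTx samples 3 or 4, with values of -0.93 to -0.52.

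Replicating Ins-led cells, with at least 2 UMIs over 10 replication genes such as Top2a and Mki67, were compared with the other Ins-led cells in 6 samples (39 against 781 cells). Here 5.24% of 2636 genes were called, and 0 of the 2 members that passed the filter, Fos at -0.35 ± 0.40 (log2, adjusted p = 0.737) and Egr1 at -0.82 ± 0.48 (adjusted p = 0.389). On every gene with a UMI Fos was at -0.92 (unadjusted p = 0.0344, adjusted p = 0.252) and Egr1 at -1.34 (unadjusted p = 0.00855, adjusted p = 0.122). Jund was at -1.52 (unadjusted p = 0.0418, adjusted p = 0.280). These 3 members had an unadjusted p below 0.05, as had 2269 of 14032 genes. The median over all genes was -0.67 in that fit, against -0.11 in the fit with the filter. With at least 3 marker UMIs Fos was at -1.22, without PPTx sample 1 it was at 0.36, and its pooled level was 84.1 CPM in replicating and 71.8 CPM in other cells, higher in replicating cells in 1 of 6 samples. Ier2 had 1 UMI in replicating and 49 in other cells, too few to compare. Of other stress and early genes Rgs2, a regulator of G protein signals, stood at -0.74 (adjusted p = 0.0346), and the chaperone gene Hspa1a at -2.14 (adjusted p = 0.00679).

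Related genes were counted from lists. Of 41 other immediate early genes 6 entered the test of other-hormone against Ins-led cells, where 3 were called higher and none lower: Zfp36, which destabilises short-lived mRNAs, by 2.25, Gadd45b by 1.58 and the antiproliferative gene Btg2 by 1.13, each in 8 of 8 samples. Over all genes 21.5% were called higher and 43.7% called in either direction. The median log2 difference of the list was 0.64, against -0.01 over all genes tested. The single types differed. In Gcg-led against Ins-led cells 7 of the list were tested, 1 called higher and 2 lower, with a median of -0.38 (-0.05 over all genes, 11.2% called higher). In Ppy-led cells 9 were tested, 4 called higher and 1 lower, with a median of 0.18 (-0.02 over all genes, 12.6% called higher). Trib1 was called lower in Gcg-led (-1.48) and in Ppy-led cells (-1.84) and Rgs2 in Gcg-led cells (-0.99). In other-hormone against Ins-led cells 10 of 13 heat shock genes were tested and 6 were called higher, with a median of 0.40. Among them were Hspa1b at 2.34, Dnajb1 at 2.18 and Hspa1a at 2.11. Of 31 kinases and factors upstream of the class 10 were tested, with Camk2b higher by 0.54, Mapk14 at -0.92 and Map2k2 at -0.58 called lower, and a median of -0.10. Between PPTx and control Ins-led cells none of the genes tested from these 3 lists was called, where 0.288% of all genes were.

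The genes whose levels ran most like the members' mean log2(CPM + 10) over 16 sums (Ins-led cells of 8 samples, Gcg-led of 3 and Ppy-led of 5), among 1714 genes, were Btg2 (Pearson r = 0.907), Dnajb1 (0.904), Pld3 (0.899), Gas5 (0.860) and Adk (0.854). The points share mice and libraries across classes. Within the 8 Ins-led sums r was 0.349 for Btg2, 0.739 for Dnajb1, 0.777 for Pld3, 0.485 for Gas5 and 0.759 for Adk. Within the 8 Gcg-led and Ppy-led sums it was 0.919, 0.787, 0.832, 0.716 and 0.611.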

How the data were processed

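Each sample pooled the islets of up to 3 mice, which were dispersed and profiled as single cells. The methods name a ddSEQ isolator and the SureCell kit, while the labels name another kit, so the platform was not taken as settled. Per the study's methods the authors aligned reads to mm10 and counted UMIs with Cell Ranger. The deposited tables hold UMI counts per cell and gene, not normalized, in 8 files with 24421 gene columns and no mitochondrial genes (0). Cells were kept with 100 to 3000 genes and 100 to 20000 UMIs, the limits in the study's methods. No doublet caller was run, and cells with mixed hormones were left out of comparisons between types.

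Counts were summed per sample and cell class, in classes with at least 10 cells (5 in the comparison of Fos-positive cells and of Ppy-led with Gcg-led cells, 3 replicating cells). Sums were tested in R 4.3.3 with edgeR 4.0.16 (filterByExpr, TMM, quasi-likelihood fit), with Benjamini-Hochberg adjustment over all genes tested at 0.05. The sample was a block in comparisons within samples. DESeq2 1.42.0 was an alternative. Single genes were tested by exact permutation or exact sign flips, two-sided (Python 3.11.15, scipy 1.17.1). The scripts were tested on simulated data. Since nothing says that samples shared or did not share a day of preparation, p-values measure the spread between these pooled samples. Samples of the same number deviated together in Ins-led cells (r = 0.179, 0.102, 0.170 and 0.314 over 1585 genes, each above 0.1), so the numbers were taken as pairs in that class, from the data and not from the labels. In other-hormone cells (r = 0.041, 0.011, 0.072 and 0.104 over 1865 genes) and over all kept cells (0.112, 0.064, 0.174 and 0.325 over 1642 genes) not every pair was above 0.1.

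The members, the gene lists and the tests were chosen with earlier results of these data known. All 10 members are named. From the lists only some of the called genes were named, including those with the largest change between other-hormone and Ins-led cells in each direction. The 5 genes most like the members were also named.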

Additional observations from a re-analysis of the deposited data

Results flagged for a closer look

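In 40 groups of 4 samples, 5 had a sample whose distance from the nearest other sample, relative to the range of the group, exceeded Dixon's 95% critical value. That value would flag about 1 in 20 groups of independent, normally distributed values. Levels from few UMIs, some at 0, are not such values, so the number of flags cannot be set against that rate. In other-hormone cells of control sample 1, which rest on 10 cells, Fosb stood at 335 CPM from 9 UMIs, where the other control samples were at 16.6 to 35.7 CPM. Ier2 stood at 186 CPM from 5 UMIs in the same cells, against 15.3 to 26.5 CPM. Egr1 stood at 107 CPM from 21 UMIs in the Ins-led cells of control sample 1, against 29.9 to 39.0 CPM in the other controls. Atf3 stood at 7.29 CPM from 4 UMIs in the Ins-led cells of PPTx sample 4, against 0.792 to 1.27 CPM. Atf3 stood at 55.4 CPM from 6 UMIs in the other-hormone cells of control sample 2, and at 0 in the other 3 control samples. With the others at 0, a single sample with any UMI is always flagged.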

How the results depend on the processing

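Limits: 4 samples a group, few UMIs per member, classes and region of the pancreas confounded with surgery, and no sham group. The 5 members called higher in other-hormone than in Ins-led cells kept direction and call in 78 of 78 values, each a member in a refit. A refit gave no value where a member failed the low-count filter or had no adjusted p. Dusp1 thus had values in 6 of 9 alternative settings and in 6 of 8 fits with a sample left out. With Ppy-led cells direction and call were kept in 71 of 71 such values. For PPTx against control in Ins-led cells no member was called in any refit, and 93 of 96 such values kept the sign.

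Counts of called genes moved as follows. For PPTx in Ins-led cells (17) they were 27 with DESeq2, 89 without the low-count filter, 28 without TMM and 33 with the replicate block. For PPTx in other-hormone cells (11) they were 6 without the hormone margin and 7 in thinned cells. For PPTx in all kept cells (32) they were 118 without the filter, with 1 member (Ier2), 59 with the replicate block and 19 in thinned cells. For other-hormone against Ins-led cells (1099, 5 members) they were 2004 without the filter (9 members), 561 thinned (3 members) and 292 in the window of 3000 to 6000 UMIs (3 members). For the difference of PPTx effects (8) they were 1 with DESeq2 and 98 without TMM. For deeper against shallower cells (32, 2 members) they were 15 with DESeq2 (0 members, neither Fos nor Jun having an adjusted p), 119 without the filter and 3 thinned (0 members), and 1 member was called without the hormone margin. For Fos-positive cells (0) they were 2 with DESeq2, 18 without the filter (1 member), 2 with hormone genes left out and 7 without thinning (2 members). For replicating cells (138) they were 88 with DESeq2 and 505 without the filter. For Gcg-led against Ins-led cells (829, 4 members) they were 322 with DESeq2, 445 thinned (2 members) and 193 in the window (2 members). For Ppy-led against Ins-led cells (869, 5 members) they were 532, 337 (3 members) and 166 (3 members). For Ppy-led against Gcg-led cells (62) they were 28 with DESeq2, 37 without the filter, 210 without TMM (1 member) and 25 thinned.

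With single samples left out the counts ranged from 1 to 20 (PPTx, Ins-led), 4 to 30 (PPTx, other-hormone, 0 to 1 member), 10 to 33 (PPTx, all cells), 818 to 1257 (other-hormone against Ins-led, 4 to 5 members), 3 to 12 (difference), 13 to 45 (depth, 0 to 2 members), 0 to 5 (Fos-positive), 94 to 157 (replicating), 441 to 783 (Gcg-led, 3 to 5 members), 599 to 922 (Ppy-led, 5 to 7 members) and 45 to 58 (Ppy-led against Gcg-led, 0 to 1 member).

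The signs that turned belonged to values not called with all samples. Dusp1 under PPTx was -0.10 (Ins-led) and -0.17 (all cells) with the replicate block, and -0.17 (other-hormone) with DESeq2. In the difference of PPTx effects Jun was -0.10 and Junb -0.19 without TMM, and Junb -0.05401 at margin 4 and -0.18 without a margin. Jund in Gcg-led against Ins-led cells was 0.50 without TMM and 0.034 with hormone genes left out. In Ppy-led against Gcg-led cells Fos was 0.11 thinned and Dusp1 -0.043 without TMM. Without thinning the share difference of Fos was 0.0014 and of Dusp1 0.12 percentage points. With single samples left out, PPTx values ranged in Ins-led cells from -0.14 to 0.71 (Egr1) and -0.21 to 0.44 (Dusp1), and in all cells from -0.071 to 0.73 (Fos), -0.10 to 0.71 (Egr1) and -0.14 to 0.36 (Dusp1). The differences of effects ranged from -1.0001 to 0.6876 (Fosb), -0.12 to 0.41 (Jun), -0.45 to 0.64 (Junb), -0.38 to 1.04 (Jund) and -0.14 to 0.69 (Dusp1), and Fos in replicating cells from -0.34 to 0.36. Share differences ranged from -4.61 to 1.83 (Fos), -0.47 to 1.75 (Fosb), -0.33 to 5.84 (Jun), -2.07 to 0.11 (Jund), -0.79 to 6.49 (Egr1) and -1.09 to 0.65 points (Dusp1). The cause was not tested.

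Without TMM the median gene moved by 0.14 (PPTx, Ins-led), -0.15 (PPTx, other-hormone), -0.28 (difference), 0.20 (replicating), 0.12 (Fos-positive) and -0.47 (Ppy-led against Gcg-led). Genes called higher went from 10 of 17 to 24 of 28, 2 of 11 to 0 of 11, 15 of 32 to 20 of 34 (all cells), 540 of 1099 to 735 of 1110 (other-hormone against Ins-led), 2 of 8 to 2 of 98, 13 of 32 to 7 of 36 (depth), 90 of 138 to 148 of 172, 369 of 829 to 953 of 1186 (Gcg-led) and 28 of 62 to 13 of 210. The replicate block changed no call of a member. In other-hormone and all kept cells the samples share only a number, and not every sample correlated best with its own number. With the block Fos was at 0.55, Jun at 0.58, Junb at 0.49, Egr1 at 0.56 and Dusp1 at 0.0079 for PPTx in other-hormone cells.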

Other observations

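The 22 cells with mixed hormones, left out of the comparisons between types, held 113 UMIs of the 10 immediate early genes, or 1080 CPM pooled. This value lay between those of Ins-led cells (273 CPM) and other-hormone cells (1652 CPM). By group it was 1386 CPM in control (44 UMIs, 8 cells) and 947 CPM in PPTx samples (69 UMIs, 14 cells). A single mixed cell of control sample 2 gave 20 of the control UMIs. Fos was found in 12 of the 22 cells and Egr1 in 10. The difference between mixed cells and either class was not tested.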
